A study of Mus musculus with 10 samples.

Results

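The genes described here are 9 that act on fatty acids and acetate as they enter metabolism. They were chosen by name: the 5 long-chain acyl-CoA synthetases Acsl1, Acsl3, Acsl4, Acsl5 and Acsl6, the acetyl-CoA synthetases Acss1 and Acss2, and the fatty acid transport proteins Slc27a1 and Slc27a4. All 9 were among the 16667 genes of the deposited table of normalized counts and the 29242 genes of the deposited table of length-corrected transcript shares (TPM), and all 9 were among the 14203 genes tested. RNA was sequenced from visceral adipose tissue of 10 mice. The KPC group held 5 wild type C57BL/6 mice aged 10 weeks that carried an orthotopic pancreatic KPC tumour, and the sham group held 5 wild type C57BL/6 mice aged 10 weeks that had sham surgery. KPC names tumour cells of a mouse model of pancreatic cancer, and orthotopic means placed in the organ of origin. The series concerns adipose tissue wasting in cancer, and the comparison asks how the level of each gene's RNA differed in the fat of tumour-bearing mice. The sample titles end in gwat, usually short for gonadal white adipose tissue. The labels used here give neither the size of the tumours nor the mass of the fat.

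A fatty acid is chemically inert in most pathways until it is joined to coenzyme A. The ACSL enzymes carry out this step for long-chain fatty acids, and the product can be built into triglyceride or phospholipid, or be sent to oxidation. ACSL1 is the main form in adipocytes. ACSL3 is found on the endoplasmic reticulum and on growing lipid droplets. ACSL4 prefers arachidonic acid and other polyunsaturated fatty acids and supplies the phospholipids that are oxidised in ferroptosis. ACSL5 is found on mitochondria and the endoplasmic reticulum and is best known from intestine and liver, and ACSL6 is best known from brain. ACSS2 makes acetyl-CoA from acetate in the cytosol and nucleus and is a known target of the sterol-regulated SREBP factors, while ACSS1 does the same inside mitochondria. SLC27A1 and SLC27A4, also called FATP1 and FATP4, promote fatty acid uptake and are acyl-CoA synthetases themselves, and FATP1 is known to respond to insulin in fat.

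Promoter windows of Acss2, Acsl5 and Acsl1 are shown because these genes had the widest spread between mice, the smallest spread, and the highest level of the 9. The windows are RefSeq sequence on GRCm38.p6, from 250 bases before to 50 bases after an annotated start, and all 9 genes matched, with 14 windows. Motifs were searched on both strands and matches are in capitals: the sterol regulatory element TCACNCNAC, the E-box CACGTG, the GC box GGGCGG, the CCAAT box CCAAT and the PPAR direct repeat, which is AGGTCA, any 1 base and AGGTCA. Overlapping matches run together. The Acss2 window lies at chr2:155517793-155518092 on the plus strand and the Acsl5 window at chr19:55253119-55253418 on the plus strand. Acsl1 has 2 windows on the plus strand, an upstream one at chr8:46470787-46471086 and a downstream one at chr8:46490716-46491015.
Acss2: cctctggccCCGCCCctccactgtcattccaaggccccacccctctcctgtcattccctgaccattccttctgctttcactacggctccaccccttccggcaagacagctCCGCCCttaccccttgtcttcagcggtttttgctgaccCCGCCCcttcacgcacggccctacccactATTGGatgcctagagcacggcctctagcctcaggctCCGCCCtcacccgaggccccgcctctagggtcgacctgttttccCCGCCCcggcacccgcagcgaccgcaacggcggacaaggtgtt
Acsl5: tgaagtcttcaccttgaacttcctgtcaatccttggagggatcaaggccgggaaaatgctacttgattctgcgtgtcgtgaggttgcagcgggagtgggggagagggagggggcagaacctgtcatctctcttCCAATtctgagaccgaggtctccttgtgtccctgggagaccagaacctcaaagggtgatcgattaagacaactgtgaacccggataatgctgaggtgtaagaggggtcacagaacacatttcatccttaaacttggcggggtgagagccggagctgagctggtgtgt
Acsl1 upstream: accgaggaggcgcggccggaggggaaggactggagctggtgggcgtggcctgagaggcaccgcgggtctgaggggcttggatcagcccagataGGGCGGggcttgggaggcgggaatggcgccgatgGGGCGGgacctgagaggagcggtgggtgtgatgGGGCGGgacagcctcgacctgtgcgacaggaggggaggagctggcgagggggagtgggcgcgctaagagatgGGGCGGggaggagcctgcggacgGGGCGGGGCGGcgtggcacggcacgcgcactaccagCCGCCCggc
Acsl1 downstream: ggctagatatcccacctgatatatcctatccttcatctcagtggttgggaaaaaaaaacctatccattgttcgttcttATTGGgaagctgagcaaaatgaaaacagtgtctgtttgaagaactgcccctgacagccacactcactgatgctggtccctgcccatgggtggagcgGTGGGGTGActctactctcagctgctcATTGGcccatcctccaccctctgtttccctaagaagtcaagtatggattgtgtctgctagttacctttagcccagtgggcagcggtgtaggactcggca

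The Acss2 window held 5 GC box matches and 1 CCAAT match, and the Acsl5 window held 1 CCAAT match. The upstream Acsl1 window held 7 GC box matches. The downstream Acsl1 window held 1 sterol element match and 2 CCAAT matches. That was the only sterol element match in the 14 windows, and 2.7% of all 32851 RefSeq windows of the same length held one. A GC box match was present in 11 of the 14 windows and in 35.7% of all windows. A CCAAT match was present in 8 of the 14 windows and in 37.4% of all windows. An E-box match was present in 1 of the 14 windows, of Slc27a1, and in 7.15% of all windows. The PPAR repeat was found in 0 of the 14 windows and in 0.0396% of all windows.

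The 10 libraries had totals of 20941242 to 24449863 normalized counts. The library of KPC mouse 1 stood apart from the others: its median correlation with them was 0.908, against 0.939 to 0.959 for the other 9, and mitochondrial genes made up 15.7% of its TPM, against 26.3% to 33.3%. Adipocyte marker genes were high in every library, with summed levels of 23100 to 29600 TPM in KPC mice and 23400 to 28600 TPM in sham mice. Such sums mostly follow the highest genes. Of 11 adipocyte markers tested, 5 had a positive and 6 a negative difference, with 46.9% of all tested genes positive. Their mean log2 level relative to the sham mean was -0.40 in KPC mouse 1 and -0.19 to 0.05 in the other KPC mice. In sham mice it was -0.11 to 0.14. Of 12 macrophage markers, 12 had a positive difference, against 46.9% of all tested genes, and 0 had an adjusted p under 0.05 by limma. For 4 of the 12 all KPC values lay above all sham values, which held for 2.75% of tested genes. Summed macrophage markers were 1570 to 6200 TPM in KPC mice, highest in KPC mouse 1, and 925 to 1510 TPM in sham mice. Skeletal muscle markers summed to 50.2 to 215 TPM in KPC mice and 47.4 to 3850 TPM in sham mice, highest in sham mouse 5. In whole tissue, fewer cells of a type and less RNA per cell cannot be told apart.

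None of the 9 genes passed the test of KPC against sham. With limma on log2(normalized count + 1) and Benjamini-Hochberg adjustment over all 14203 genes, 0 of 9 had an adjusted p under 0.05, and of all tested genes 8 did, or 0.0563%, with 7 higher (0.0493%) and 1 lower (0.00704%). At an unadjusted p under 0.05 there were 2 of the 9, against 13.5% of all tested genes: Acsl5 was higher and Slc27a4 was lower. Acsl5 was also the 1 gene of the 9 whose 5 KPC values all lay above all 5 sham values in normalized counts, which held for 2.75% of tested genes. For 0 of the 9 did all KPC values lie below, which held for 1.28% of tested genes, and 4.03% had groups that did not overlap in either direction. The difference was positive for 5 genes and negative for 4. Its median was 0.03 on the log2 scale, against -0.02 over all tested genes.

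**Figure D1:**
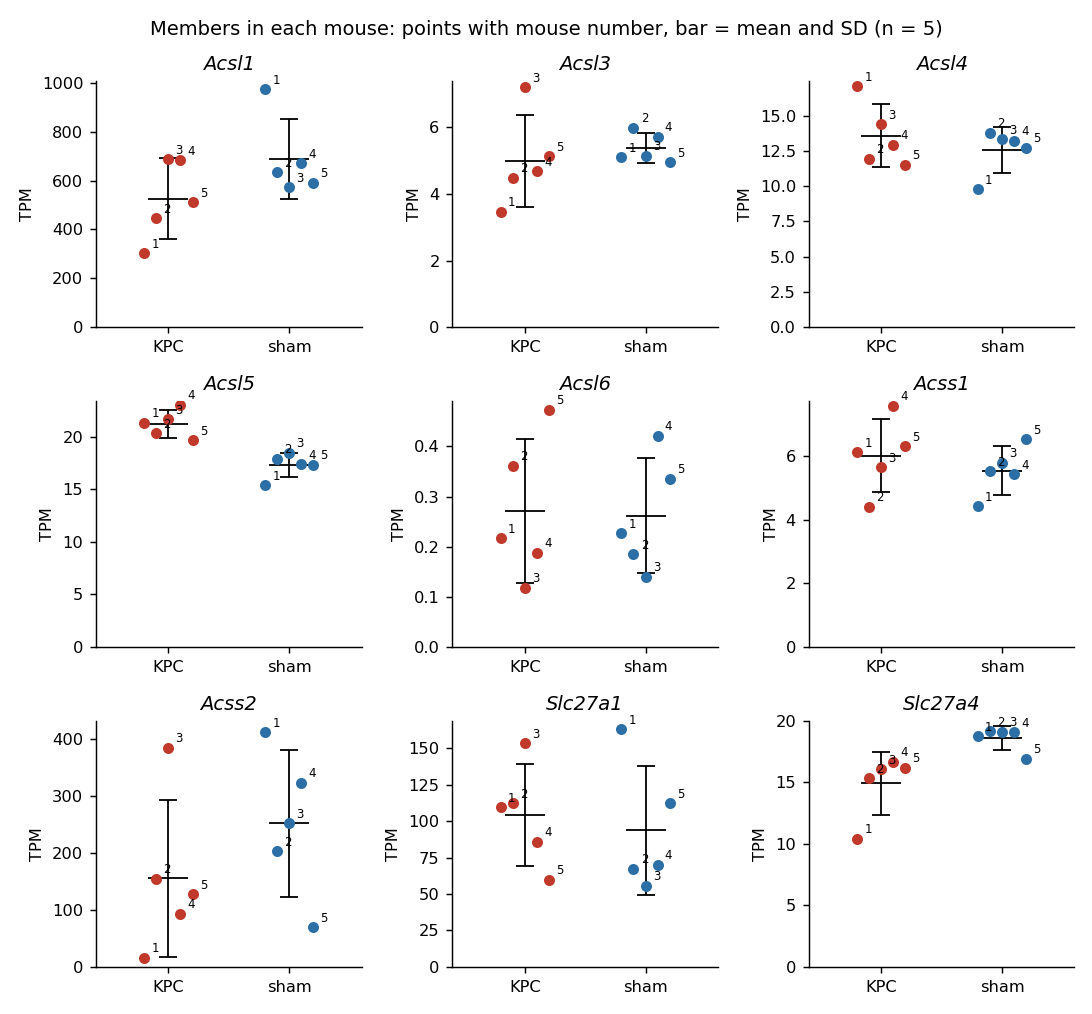
Level of each of the 9 genes in TPM in each mouse, with KPC mice left of sham mice, on a linear axis for each gene, with the group means and SD. Acsl5 is the only gene whose KPC points all lie above the sham points, and Acss2 spreads over 25.9-fold. The KPC points of Slc27a4 all lie below its sham points, by 16.67 against 16.90 TPM, but in normalized counts its groups overlap.

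Acsl1, the main adipocyte acyl-CoA synthetase, had the highest level of the 9 genes and did not pass the test. It lies on chromosome 8 at 46471037 to 46536051 on the plus strand (GRCm38, GENCODE vM21). Its level was 302, 446, 687, 684 and 513 TPM in KPC mice 1 to 5, against 973, 633, 572, 671 and 591 TPM in sham mice 1 to 5. The groups overlapped, with the 3 lowest values in KPC mice 1, 2 and 5 and the highest in sham mouse 1. Means were 526 ± 164 TPM in KPC mice and 688 ± 164 TPM in sham mice (SD, n = 5 each). The log2 difference was -0.39 ± 0.26 (SE), a fold of 0.764 with a 95% interval of 0.517 to 1.13, and limma's adjusted p was 0.523. The difference was -0.22 when KPC mouse 1 was left out and -0.21 when sham mouse 1 was. Within the number that opens the sample titles (1, 2 or 4), whose meaning the labels do not give, it was -1.10, 0.30 and 0.01. The sign was not the same in each, but number 2 held 1 KPC mouse and number 4 held 1 sham mouse. Differences that rest on single mice cannot settle the direction.

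Acsl5 had a small, even difference between the groups that did not pass the adjusted test. Its level was 21.3, 20.3, 21.7, 23.0 and 19.7 TPM in KPC mice 1 to 5, against 15.4, 17.9, 18.5, 17.4 and 17.3 TPM in sham mice 1 to 5. The lowest KPC value lay above the highest sham value. Means were 21.2 ± 1.29 TPM in KPC mice and 17.3 ± 1.17 TPM in sham mice (SD, n = 5 each). On the log2 scale the difference was 0.33 ± 0.073 (SE), a fold of 1.25 with an interval of 1.12 to 1.40. The unadjusted p was 0.00087 and limma's adjusted p was 0.114, so Acsl5 was not called. Its SD between mice after the group means were removed was 0.0755 on the log2 scale, and 1.10% of tested genes had one no larger.

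The Acsl5 difference kept its sign within each number that opens the titles. It was 0.32 in the 2 KPC and 2 sham mice of number 1, 0.43 in the 1 KPC and 2 sham mice of number 2, and 0.30 in the 2 KPC and 1 sham mice of number 4. Without KPC mouse 1 it was 0.31. Limma with a weight per library called Acsl5, with an adjusted p of 0.0453 and a difference of 0.30. Over the 22 alternative settings the adjusted p ran between 0.0453 and 0.332. The macrophage markers above had positive differences, as Acsl5 did, and so did 8 of 8 tested T cell markers. Summed T cell markers were 8.36 to 12.5 TPM in KPC mice and 5.15 to 8.41 TPM in sham mice. Summed red cell markers were 8560 to 40800 TPM in KPC mice, highest in KPC mouse 1, and 4750 to 12900 TPM in sham mice, and 8 of 8 had a positive difference. Summed neutrophil markers were 42.9 to 269 TPM in KPC mice and 32.5 to 71.1 TPM in sham mice, and 6 of 6 tested had a positive difference. Other lists were mixed or went the other way. Positive differences were found for 5 of 8 endothelial, 4 of 7 mesothelial and 3 of 8 fibroblast and progenitor markers. They were found for 2 of 7 brown and beige adipocyte markers and 0 of 9 skeletal muscle markers. Of all tested genes 46.9% had a positive difference, and no gene of these marker lists had an adjusted p under 0.05 by limma. The part of these markers in the Acsl5 difference was not tested. Acsl5 lies on chromosome 19 at 55251938 to 55297720 on the plus strand and overlaps Zdhhc6 on the opposite strand, which averaged 1.01 TPM.

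**Figure D2:**
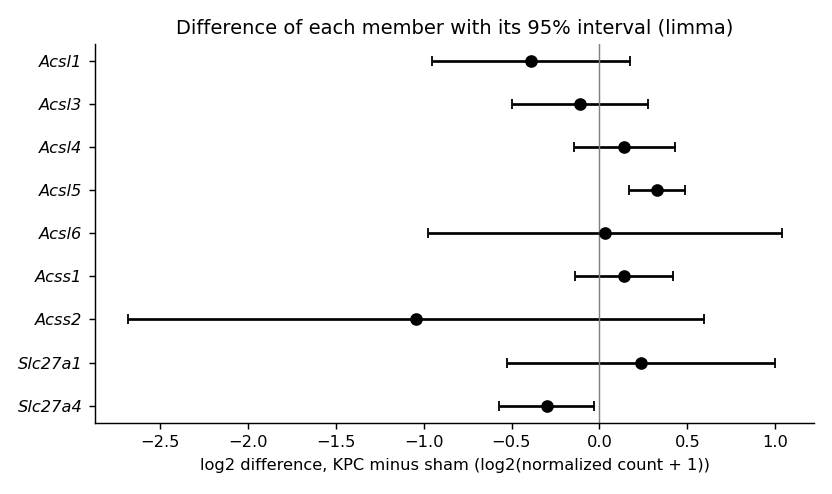
Log2 difference of each gene, KPC minus sham, on log2(normalized count + 1), with limma's 95% interval, not adjusted for the number of genes. The intervals of Acsl5 (0.17 to 0.49) and Slc27a4 (-0.57 to -0.03) lie on one side of 0, and Acss2 has the widest interval.

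Acsl4, which activates arachidonic acid, had levels of 17.1, 11.9, 14.4, 12.9 and 11.5 TPM in KPC mice, against 9.78, 13.8, 13.3, 13.2 and 12.7 TPM in sham mice. The groups overlapped, with the highest value in KPC mouse 1 and the lowest in sham mouse 1. The log2 difference was 0.14 ± 0.13 (SE, limma's adjusted p = 0.663), and 0.04 without KPC mouse 1. Acsl3, the lipid droplet form, had levels of 3.46, 4.49, 7.19, 4.68 and 5.12 TPM in KPC mice, against 5.09, 5.98, 5.14, 5.72 and 4.94 TPM in sham mice. Both the lowest and the highest value were from KPC mice, with an SD of 1.38 TPM in KPC mice and 0.447 TPM in sham mice. Its log2 difference was -0.11 ± 0.18 (SE, limma's adjusted p = 0.817). Leaving out KPC mouse 1 gave -0.01, KPC mouse 4 or sham mouse 2 gave -0.07, and KPC mouse 3 gave -0.27. Acsl6 was near the limit of what was measured, at 0.118 to 0.473 TPM in KPC mice and 0.141 to 0.421 TPM in sham mice. This came to 6.17 to 23.1 normalized counts in KPC mice and 6.54 to 19.9 in sham mice. Its log2 difference of 0.03 ± 0.46 (SE, limma's adjusted p = 0.984) has an interval of -0.97 to 1.04, the difference was 0.05 without KPC mouse 1, and the sign turned in 5 of 21 alternative settings.

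Since TPM is corrected for length, the 5 ACSL genes can be set against each other within a mouse. Acsl1 made up 87.8%, 92.3%, 94.1%, 94.4% and 93.3% of summed ACSL TPM in KPC mice, against 97.0%, 94.4%, 93.9%, 94.8% and 94.4% in sham mice. The lowest share was in KPC mouse 1 and the highest in sham mouse 1, and the groups overlapped. Acsl5 made up 4.02% ± 1.3 of the sum in KPC mice and 2.49% ± 0.575 in sham mice (SD, n = 5 each). Its shares overlapped, with 2.97% in KPC mouse 3 and 3.03% in sham mouse 3, and the highest was 6.19% in KPC mouse 1. The summed level was 566 ± 165 TPM in KPC mice and 724 ± 161 TPM in sham mice (SD, n = 5 each).

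**Figure D3:**
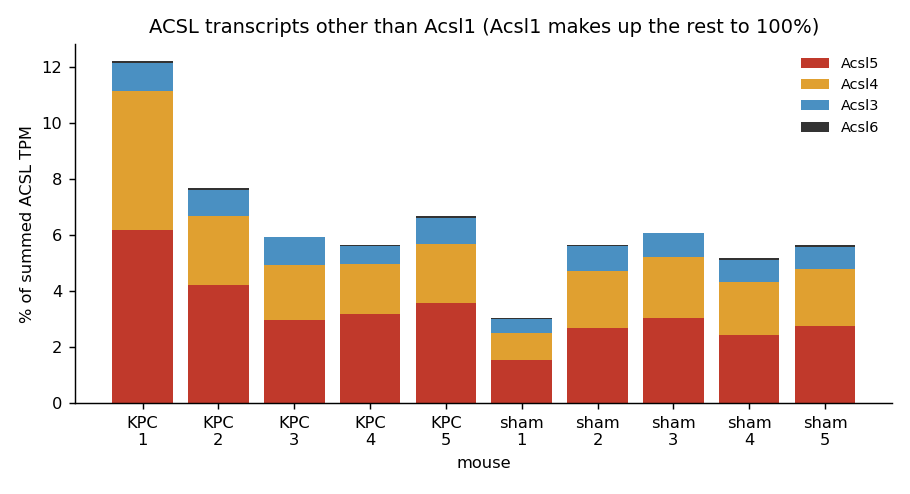
Share of Acsl3, Acsl4, Acsl5 and Acsl6 in the summed TPM of the 5 ACSL genes in each mouse, with Acsl1 making up the remainder to 100%. KPC mouse 1 has the largest remainder outside Acsl1 and sham mouse 1 the smallest.

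Acss2, the cytosolic acetyl-CoA synthetase, had the second highest level and the widest spread of the 9 genes, and did not pass the test. It lies on chromosome 2 at 155517948 to 155585724 on the plus strand. Its level was 15.9, 155, 384, 93.1 and 128 TPM in KPC mice 1 to 5, against 412, 202, 252, 323 and 69.3 TPM in sham mice 1 to 5. The highest value was 25.9 times the lowest. The groups overlapped, with the lowest values in KPC mouse 1 and sham mouse 5 and the highest in sham mouse 1 and KPC mouse 3. Means were 155 ± 138 TPM in KPC mice and 252 ± 129 TPM in sham mice (SD, n = 5 each). The log2 difference was -1.04 ± 0.75 (SE), a fold of 0.485 with an interval of 0.156 to 1.51, and limma's adjusted p was 0.558.

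The size of the Acss2 difference depended on single mice. It was -0.39 without KPC mouse 1, -1.53 without KPC mouse 3 and -1.47 without sham mouse 5. Within the first number of the title it was -2.55 for number 1, 0.58 for number 2 and 0.66 for number 4, so the sign was not the same in each. The only KPC mouse of number 2 was KPC mouse 3, and the only sham mouse of number 4 was sham mouse 5. Differences that rest on single mice cannot settle the direction. The Acss2 SD between mice was 1.40 on the log2 scale, and 96.6% of tested genes had one no larger. Acss2 overlaps Gss and Ggt7 on the opposite strand, which averaged 16.4 and 1.43 TPM.

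Acss1, the mitochondrial acetyl-CoA synthetase, was far more even. Its level was 6.11, 4.41, 5.65, 7.57 and 6.31 TPM in KPC mice, against 4.42, 5.53, 5.79, 5.43 and 6.53 TPM in sham mice. The groups overlapped, and the highest value was 1.72 times the lowest. The log2 difference was 0.14 ± 0.13 (SE, limma's adjusted p = 0.654). With 1 mouse left out it ran between 0.08 (KPC mouse 4 left out) and 0.24 (KPC mouse 2 left out). The ratio of Acss2 to Acss1 in TPM ran between 2.6 and 67.9 in KPC mice and between 10.6 and 93.1 in sham mice.

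Several genes of fatty acid synthesis were lowest in the same mice as Acss2. The 3 genes most like Acss2 over the 10 mice, by Pearson's r of log2 values with the group means removed, among 11812 genes, were Elovl6 (r = 0.998), Slc25a1 (0.991) and B3glct (0.991). Elovl6 elongates palmitate, and Slc25a1 exports citrate from mitochondria, a source of cytosolic acetyl-CoA. Without KPC mouse 1 the r with Elovl6 was 0.996. The 10 points share their libraries and the scaling, and these r are given as a description. Elovl6 was at 2.94, 49.2, 157, 25.4 and 38.9 TPM in KPC mice, against 156, 67.4, 101, 134 and 16.3 TPM in sham mice. Of 14 tested genes of acetyl-CoA supply and lipogenesis, 11 were lowest in KPC mouse 1, and for 9 the lowest pair was KPC mouse 1 and sham mouse 5. The library of KPC mouse 1 stood apart from the others, and the share of all tested genes lowest in these mice was not counted. For 6 of the 14 the highest pair was sham mouse 1 and KPC mouse 3, as for Acss2. Both counts of pairs include Elovl6 and Slc25a1, which were picked above by their likeness to Acss2 in these same mice. Elovl5, Scd1, Scd2, Slc16a1 and Slc16a7 had other lowest pairs. Acly, which makes acetyl-CoA from citrate, was lowest in the same pair, at -3.47 and -2.22 on the log2 scale relative to the sham mean. Fasn, the fatty acid synthase, was at -2.90 and -1.79 in this pair.

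**Figure D4:**
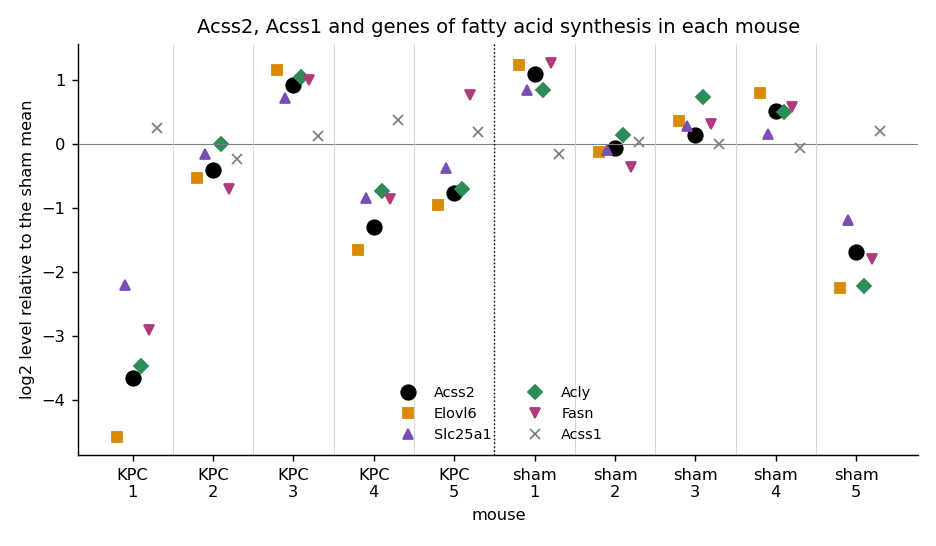
Log2 level of Acss2, Elovl6, Slc25a1, Acly, Fasn and Acss1 in each mouse relative to the sham mean of each gene. KPC mouse 1 and sham mouse 5 are low for all but Acss1, with Acss2 at -3.66 in KPC mouse 1 and -1.69 in sham mouse 5. Elovl6 and Slc25a1 were picked by their likeness to Acss2 in these same mice, so their pattern follows from that choice.

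Slc27a1, the insulin-responsive fatty acid transport protein, had the third highest level and did not pass the test. Its level was 109.7, 112, 154, 85.8 and 59.8 TPM in KPC mice 1 to 5, against 163, 67.4, 55.7, 70.0 and 112 TPM in sham mice 1 to 5. The groups overlapped over nearly their whole range. Means were 104 ± 34.8 TPM in KPC mice and 93.7 ± 44.4 TPM in sham mice (SD, n = 5 each). On the log2 scale the difference was 0.24 ± 0.35 (SE), a fold of 1.18 with an interval of 0.694 to 2.00, and limma's adjusted p was 0.798. Leaving out KPC mouse 1 gave 0.18, and leaving out KPC mouse 3 gave 0.07. Leaving out KPC mouse 5 gave 0.43 and leaving out sham mouse 1 gave 0.51. Leaving out sham mouse 2 or 4 gave 0.15, and sham mouse 3 gave 0.06. Within the first number of the title it was 0.08, 1.45 and -0.64 for numbers 1, 2 and 4.

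Slc27a4, the other transport protein, was lower in KPC mice at an unadjusted p of 0.0316 and was not called. It lies on chromosome 2 at 29802634 to 29817522 on the plus strand. Its level was 10.4, 15.3, 16.1, 16.7 and 16.2 TPM in KPC mice 1 to 5, against 18.8, 19.1, 19.1, 19.1 and 16.9 TPM in sham mice 1 to 5. In TPM the groups did not overlap, by 16.67 TPM in KPC mouse 4 and 16.90 TPM in sham mouse 5. In normalized counts they did, with 1231 in KPC mouse 3 and 1175 in sham mouse 5. The share of all tested genes whose groups did not overlap in TPM was not counted. Means were 14.9 ± 2.56 TPM in KPC mice and 18.6 ± 0.957 TPM in sham mice (SD, n = 5 each). The log2 difference was -0.30 ± 0.12 (SE), a fold of 0.812 with an interval of 0.674 to 0.978, and limma's adjusted p was 0.329. The unadjusted p was 0.067 with the replicate block and 0.061 with the first number of the title as a block, and 0.075, 0.064 and 0.051 without sham mouse 1, 2 or 4. Without KPC mouse 1 the difference was -0.19, and within the first number of the title it was -0.59, -0.10 and -0.04 for numbers 1, 2 and 4.

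The genes most like Acsl1 by the same measure were Zbtb41 (r = 0.979), Igfals (0.963) and Apmap (0.961), the last a membrane protein of adipocytes. Those most like Slc27a1 were Hs3st3b1 (r = 0.948), Trit1 (0.914) and Nxnl1 (0.913). Nxnl1 is the neighbour of Slc27a1 on chromosome 8, on the opposite strand and 2280 bases away, with 0 protein-coding genes between.

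By mean TPM over the 10 mice, the order was Acsl1 (607), Acss2 (203), Slc27a1 (99.0), Acsl5 (19.2), Slc27a4 (16.8), Acsl4 (13.1), Acss1 (5.78), Acsl3 (5.18) and Acsl6 (0.267). Acsl1 was above Acss2 in 10 of 10 mice, Slc27a1 above Acsl5 in 10, Acsl4 above Acss1 in 10 and Acsl3 above Acsl6 in 10. Acss2 was above Slc27a1 in 8 mice and Slc27a4 above Acsl4 in 9. Acss1 and Acsl3 did not have a steady order, with Acss1 above in 5 of 10 mice. Acsl5 was above Slc27a4 in 5 of 5 KPC mice and 1 of 5 sham mice.

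Around these genes, 9 lists of lipid genes were described, with 119 tested genes of 131 listed. None passed the test by limma (0 of 119, lowest adjusted p = 0.236 for Pank3). At an unadjusted p under 0.05, 4 were higher, or 3.36%, against 7.61% of all tested genes, and 10 were lower, or 8.4%, against 5.91%. Of the 119 genes, 35 had a positive difference, or 29.4%, against 46.9% of all tested genes. The median difference was -0.13, against -0.02 over all tested genes. Without KPC mouse 1, 41 of the 119 had a positive difference, or 34.5%, against 45.3% of all tested genes, and the median was -0.09. Lower genes at an unadjusted p under 0.05 then numbered 7, or 5.88%, against 5.25% of all tested genes. Without sham mouse 5 they numbered 19, or 16%, against 6.1% of all tested genes, and the median of the 119 was -0.17. Values of list genes below are log2 differences, KPC minus sham, and none passed the adjusted test.

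Of 10 other tested acyl-CoA synthetase family genes, 4 had positive and 6 negative differences, with a median of -0.11, and -0.01 without KPC mouse 1. The smallest p were of Acsf3 (-0.58), which acts on malonate in mitochondria, and Aacs (-0.49), the acetoacetyl-CoA synthetase of the cytosol and the highest in TPM. Slc27a3 had 0.14 and Acss3 had -0.13. Of 14 genes of fatty acid uptake and acyl-CoA binding, 3 were positive and 11 negative, with a median of -0.17. Ffar4, a receptor for long-chain fatty acids, averaged 18.5 ± 3.51 TPM in KPC mice and 23.8 ± 2.55 TPM in sham mice (SD, n = 5 each), a difference of -0.35. Lpl, the lipase that frees fatty acids from circulating triglyceride, had 769 TPM in KPC mouse 1 and 1910 to 2990 TPM in the other KPC mice. In sham mice it had 2720 to 3940 TPM, a difference of -0.83 with all mice. Gpihbp1, which carries Lpl to the capillary wall, had 0.31. Acbd4 had -0.41, and Fabp4, the adipocyte fatty acid binding protein, averaged 17600 TPM in KPC mice and 18000 TPM in sham mice.

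Of 10 acyl-CoA thioesterases, which undo the ACSL step, 4 were positive and 6 negative, with a median of -0.08, and -0.12 with 1 positive and 9 negative without KPC mouse 1. Them4 had -0.30, Acot2 -0.23, Acot6 -0.33 and Acot13, the highest in TPM, 0.03. Acot1 had 0.83, at 0.495 to 1.45 TPM in KPC mice and 0.28 to 1.11 TPM in sham mice. Of 14 genes of coenzyme A supply and breakdown, 2 were positive and 12 negative, with a median of -0.13, and -0.21 without sham mouse 5. Pank3, which starts coenzyme A synthesis, averaged 84.2 ± 19.7 TPM in KPC mice and 128 ± 23.1 TPM in sham mice (SD, n = 5 each), a difference of -0.59. Slc25a16 had -0.23, Nudt7 -0.37 and Vnn1 0.83, the last at 14.1 TPM in KPC mouse 1 and 2.75 to 4.62 TPM in the other KPC mice, against 1.26 to 7.36 TPM in sham mice.

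Of 13 genes of glycerolipid synthesis, 2 were positive and 11 negative, with a median of -0.19, and -0.07 without KPC mouse 1. Dgat2, which completes triglyceride, was at 136 TPM in KPC mouse 1 and 612 to 1150 TPM in the other KPC mice. In sham mice it was at 756 to 2010 TPM, a difference of -1.20 with all mice. Gpat3 had -0.46 and Mogat2 -1.28. Lpin2 and Lpin3, lipins that remove the phosphate from phosphatidate, had 0.37 and 0.58. Of 16 genes of phospholipid remodelling and ferroptosis, 11 were positive and 5 negative, with a median of 0.09, which was 0.01 without KPC mouse 1 and 0.15 without sham mouse 5. Slc3a2 had 0.24, Alox5 0.54, Lpcat4 0.19 and Alox12 -0.45. Gpx4, the enzyme that reduces lipid peroxides, averaged 1480 TPM in KPC mice and 1600 TPM in sham mice. Alox5 was highest in KPC mouse 1, at 12.2 TPM.

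Of 16 genes of the carnitine shuttle and long-chain oxidation, 3 were positive and 13 negative, with a median of -0.21, and -0.12 without KPC mouse 1. Abcd2, a peroxisomal transporter of acyl-CoA, was at 65.2 TPM in KPC mouse 1 and 123 to 136 TPM in the other KPC mice. In sham mice it was at 146 to 202 TPM, a difference of -0.58 with all mice. Abcd3 had -0.39, Acadm -0.26, Acads -0.24 and Hadh -0.20. Of 14 genes of acetyl-CoA supply and lipogenesis, 2 were positive and 12 negative, with a median of -0.56. Without KPC mouse 1, 6 were positive and 8 negative, with a median of -0.11. Without sham mouse 5, 2 were positive and 12 negative, with a median of -0.99. Scd2 had -1.27, Elovl6 -1.31 and Acaca -0.73, and Scd1, the highest of the list, averaged 4130 ± 2220 TPM in KPC mice and 6770 ± 2640 TPM in sham mice (SD, n = 5 each). Each of these was lowest in KPC mouse 1. Of 12 sterol and lipid regulators, 4 were positive and 8 negative, with a median of -0.12, and without KPC mouse 1 the median was 0.01. Pparg, the master regulator of adipocytes, averaged 61.2 ± 15.8 TPM in KPC mice and 91.3 ± 17.4 TPM in sham mice (SD, n = 5 each), a difference of -0.56. Srebf2 had -0.26, Nr1h2 0.15, Insig1 -0.75 and Srebf1, the regulator of fatty acid synthesis, 0.22.

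**Figure D5:**
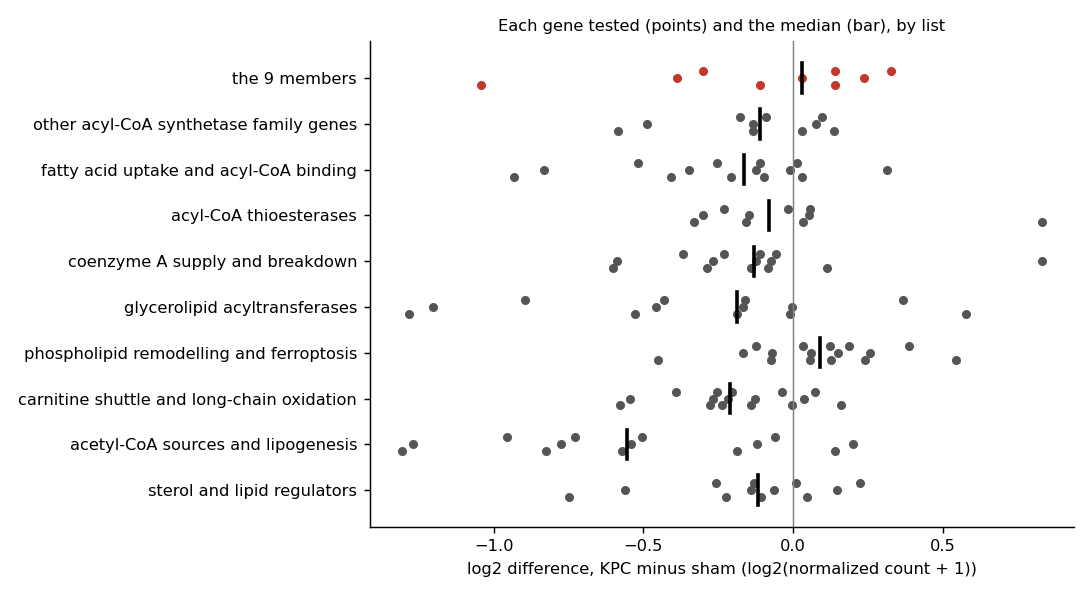
Log2 difference, KPC minus sham, of each tested gene in the 9 lipid lists, with list medians. The medians run between -0.56 for acetyl-CoA sources and lipogenesis and 0.09 for phospholipid remodelling and ferroptosis.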

How the data were processed

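RNA of visceral fat from 5 KPC and 5 sham mice was analysed from the 2 tables the authors deposited. Per the labels' protocols, RNA was extracted from frozen tissue with a Qiagen kit and libraries were made by Genewiz. Salmon, DESeq2, DESeq and build mm10 are listed, per the submitters' processing notes. Their versions, the annotation and the use of strand were not given in the sources used here. Whether reads of overlapping genes on opposite strands were separated is therefore unknown here, and overlaps are given for whole genes, not exons. The authors' normalized counts, handled as a signal, were not whole reads divided by a factor: at the best step, 31.1% to 47.3% of values up to 30 lay within 0.05 of a whole number, so no count model was run and the depth in reads was not recovered. The authors' TPM are length-corrected and were used for levels.

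Genes averaging 10 or more normalized counts were tested on log2(normalized count + 1) by limma (version 3.58.1, R version 4.3.3) using a variance trend, with Benjamini-Hochberg adjustment and a threshold of 0.05. Folds are on this scale, which understates the change of low genes, and intervals cover 95%. The test was checked on simulated data. Groups and mouse numbers come from the labels, which name no litter, cage or culture, so p-values measure the spread between these samples. The members and the gene lists were chosen with earlier results of these data known. All 9 members were named, with up to 4 genes of the smallest p and the highest gene of each lipid list, and the 3 genes most like each of the 3 highest members, and their likeness used genes with a mean of at least 50. Marker lists are given as sums and counts where they touch a result, with a mean log2 level for the adipocyte list. The 2 highest genes of each list, which the rule also named, are left out. The lists without KPC mouse 1 or sham mouse 5 were an alternative chosen after seeing the data. Other alternatives changed the added constant, the filter, the scaling, the variance model, blocks, the test and the mice. Nudt8 was not analysed here. Gene positions are from GENCODE vM21 and promoters from RefSeq.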

Additional observations from a re-analysis of the deposited data

Results flagged for a closer look

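Of 18 groups of 5 mice, 1 for each gene and condition, 2 held a mouse far from the other 4 on the scale of log2(normalized count + 1), and chance flags about 1 in 20 groups. Slc27a4 in KPC mouse 1, at 10.4 TPM, was the lowest of the KPC mice, and on that log2 scale its gap to the next value was 0.801 of the group's range. Acsl1 in sham mouse 1, at 973 TPM, was the highest of the sham mice, with a gap of 0.748 of the group's range on the same log2 scale.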

How the results depend on the processing

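Of the 9 genes, 0 passed in each alternative but 1: limma with a weight per library called 1, Acsl5. Over all genes, 8 were called in limma as first run (1920 at an unadjusted p under 0.05), 2 with TPM, 3 without a variance trend, 200 with library weights and 2 to 70 with 1 mouse left out, 70 of them without KPC mouse 1. The exact permutation test, whose smallest p is 0.00794 over 252 assignments, called 0, with 1981 of 14203 genes and 2 of the 9 members at an unadjusted p under 0.05. In this test 572 genes had the smallest p, Acsl5 among them, and its adjusted p was 0.197. No gene could therefore be called by it, and its 0 is a limit of the test. In all alternative fits, direction held for 8 of the 9 genes. Within the first number of the title it did not hold for Acsl1, Acsl3, Acsl4, Acsl6, Acss2 and Slc27a1. Number 2 held 1 KPC mouse and number 4 held 1 sham mouse, so these differences rest partly on single mice. The Acsl6 difference was -0.095 with the first number of the title as a block and ran between -0.18 and 0.25 with 1 mouse left out. The cause was not tested. Of 119 lipid list genes, 84 had a negative difference, 78 without KPC mouse 1 and 86 without sham mouse 5. With that number as a block, 4 genes were called.

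The 2 groups share mouse numbers 1 to 5. Same-numbered mice correlated at 0.00505 to 0.191 after group means were removed, and 2 of 5 KPC mice matched their own number best. Except for number 4, same-numbered mice also share the first number of the title. The labels do not say that mice were paired, and 5 correlations are too few to settle it. With the replicate block, 4 genes and 0 of the 9 members were called. The median SE of a difference, 0.172 on the log2 scale, limits what 5 mice per group can show, and the low values of Acsl6 limit it further.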
